A study of Mus musculus with 8 samples.

Results

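A set of 6 genes of the LIF-STAT3 pathway (Lifr, Il6st, Jak1, Stat3, Socs3 and Pim1) was followed through 2 differentiation states of R1 mouse embryonic stem cells (ESCs) and 2 Oxford Nanopore Technologies (ONT) kits. They were taken by symbol, and all 6 were found among the 24421 genes counted in each of the 8 libraries. The R1 line is a pluripotent line. Undiff cells had been kept in serum-containing growth medium. The study's methods describe them as maintained cells with leukaemia inhibitory factor (LIF), whereas the labels call them embryoid bodies held for 4 days in that medium. Day4 cells had been grown as embryoid bodies for 4 days without LIF and then for 4 days with retinoic acid (RA). The RA dose is 2 µM in the series' design text and the methods, whereas the labels' treatment protocol has 2 mM. RA separates Day4 from Undiff, and because the sources differ it is not settled whether embryoid body growth and withdrawal of LIF do so as well. Where they do, they cannot be told apart from RA here. The ONT Direct RNA libraries were made from 500 ng of poly(A) RNA, whose native strand passes through the pore. The ONT cDNA libraries were made from 50 ng, copied into cDNA and amplified by PCR. Each kit and state had 2 replicates, which the methods describe as grown and treated separately.

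LIF is a cytokine that binds Lifr, and the ligand-bound chain pairs with the shared signalling chain gp130, the product of Il6st. The kinase Jak1, bound to these receptors, then phosphorylates Stat3, which enters the nucleus and activates its targets. Socs3 is one such target and feeds back by inhibiting the receptor complex and its kinases, and Pim1, another, is a serine/threonine kinase. In mouse ESCs kept in serum, this pathway is known for sustaining self-renewal.

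The Direct RNA libraries held 283461 to 907489 reads on genes, and the cDNA libraries 948657 to 2088592. Levels are given as CPM, reads per 1e6 reads on genes. A floor of 3 reads came to between 1.44 and 10.6 CPM per library, and read numbers are given because the members were counted with few reads. All 8 markers of embryonic stem cells had reads in both states, with a summed level of 11482 to 24601 CPM in Undiff and 84.2 to 944 CPM in Day4. The fibroblast markers, 2 of 7 with reads in Undiff and 7 of 7 in Day4, summed to 4.31 to 14.3 CPM in Undiff. In Day4 they summed to 1220 to 2942 CPM in Direct RNA and to 226 to 235 CPM in cDNA. Of them, Thy1 went the other way, from a mean of 7.61 to 2.03 CPM in Direct RNA and from 5.60 to 0.481 CPM in cDNA. The endoderm markers, 5 of 8 with reads in Undiff and 8 of 8 in Day4, went from between 1.05 and 14.3 to between 209 and 1051 CPM. Endothelial markers summed to 32.7 to 121 CPM in Undiff, where Cdh5 and Emcn were at 0, and to 72.1 to 167 CPM in Day4, while their member Pecam1 went down, from a mean of 88.2 to 34.3 CPM in Direct RNA and from 32.6 to 23.5 CPM in cDNA. Neural markers summed to 83.3 to 187 CPM in Undiff and to 42.4 to 85.4 CPM in Day4, where Tubb3 went from a mean of 145 to 12.7 CPM in Direct RNA and from 116 to 25.5 CPM in cDNA, and Nes went the other way, from 8.93 to 46.5 CPM and from 1.72 to 13.4 CPM. Blood markers summed to 23.1 to 47.4 CPM in Undiff and to 129 to 770 CPM in Day4. Of these, the globin gene Hbb-bh1 went from 0 to means of 391 (Direct RNA) and 444 CPM (cDNA), Cd68 went from 33.1 to 3.80 CPM and from 41.0 to 4.2 CPM, and Ptprc, the pan-leukocyte marker, was at 0 in all 8 libraries. In such bulk libraries, fewer cells of a type and less RNA per cell cannot be told apart, and the part of these other cell types in the results on the pathway was not tested.

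Among the 6 members, Socs3 fell between Undiff and Day4 on both kits and Pim1 fell in Direct RNA. Jak1 had a higher CPM in Day4 than in Undiff on both kits but did not pass the test, and Lifr, Il6st and Stat3 did not pass it on either kit. Differentially expressed genes (DEGs) were called with DESeq2 on each kit separately, with 3 thresholds: an adjusted p no higher than 0.05, a 2-fold change or more (1 on the log2 scale), and normalized counts averaging 5 or more. DESeq2 scales libraries by size factors and not by total reads, which set its Day4 over Undiff differences -0.10 (Direct RNA) and -0.33 (cDNA) away from those of CPM on the log2 scale, and its cDNA over Direct RNA differences 0.75 away. All 6 members reached that mean count on both kits. In Direct RNA 0 members were called higher and 2 lower, beside 17.2% of 9646 genes called in either direction (9.54% higher and 7.67% lower). In cDNA 0 were called higher and 1 lower, beside 17.9% of 10271 genes called in either direction (8.69% higher and 9.24% lower). The median log2 fold change of the members was -0.96 in Direct RNA and -0.44 in cDNA, beside 0.03 and 0.00 over all genes at that mean count. The CPM of both Day4 libraries lay on one side of both Undiff libraries for 4 of the 6 members in Direct RNA and 3 of the 6 in cDNA. The same was so for 67.6% of all tested genes in Direct RNA and 66.3% in cDNA, so these counts do not set the members apart.

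**Figure D1:**
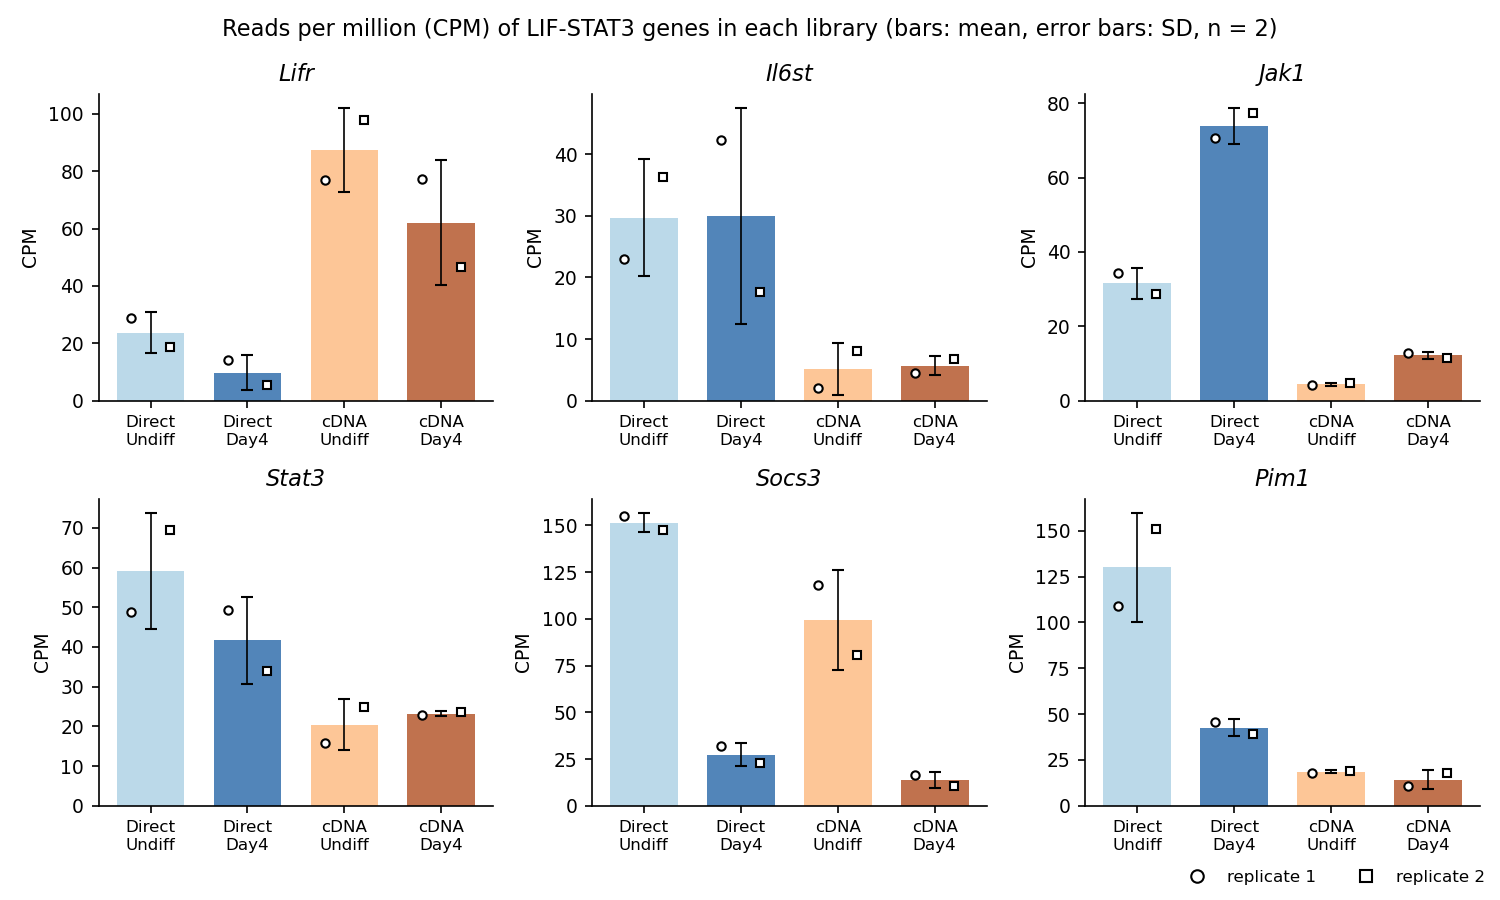
Level of each LIF-STAT3 gene in CPM (linear axes that start at 0) in the 4 groups, with circles for replicate 1, squares for replicate 2, bars for the mean and error bars for the SD (n = 2). Socs3 is high in Undiff and low in Day4 on both kits, Lifr is higher in cDNA than in Direct RNA, and Il6st and Jak1 are lower in cDNA.

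Socs3, the feedback inhibitor (ENSMUSG00000053113.3), lies on the minus strand of chr11:117966079-117970047 (GRCm38, GENCODE), with a longest transcript of 2552 bases in 2 exons. In Direct RNA it had 155 and 148 CPM in the Undiff replicates (54 and 134 reads) and 31.8 and 23.0 CPM in the Day4 replicates (9 and 17 reads). In cDNA it had 118 and 80.4 CPM in Undiff (112 and 168 reads) and 16.7 and 10.6 CPM in Day4 (22 reads in each). Every Undiff library was above every Day4 library on either kit. The mean went from 151 ± 5.17 to 27.4 ± 6.15 CPM (SD, n = 2) in Direct RNA, 5.52-fold lower, and from 99.2 ± 26.6 to 13.6 ± 4.31 CPM in cDNA, 7.28-fold lower. The shrunken log2 fold change was -2.52 (SE 0.53, DESeq2 adjusted p = 7.6e-05) in Direct RNA and -3.10 (SE 0.54, DESeq2 adjusted p = 6.5e-07) in cDNA. The cDNA call held when any one of its 4 libraries was left out. The Direct RNA call was lost without Undiff replicate 2 (DESeq2 adjusted p = 0.124) and without Day4 replicate 2 (DESeq2 adjusted p = 0.069), with log2 fold changes of -2.41 and -2.21.

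The promoter windows of the members were searched for the palindrome TTCNNNGAA, the core letters bound by STAT proteins, because Socs3 and Pim1 are known Stat3 targets and both fell in Direct RNA. A window held 250 bases before and 50 after a transcript start (RefSeq, GRCm38.p6), and 8.3% of 32851 windows and 9.55% of 27025 genes held these letters. The 6 members had 8 windows, and 1 of the 8, that of Socs3, had a match, 154 bases before the RefSeq start. That start lies inside the span GENCODE gives for Socs3, so the match is within the annotated gene, outside its exons. It is shown from chr11:117969452-117969616 on the minus strand, with the match, at chr11:117969512-117969520, in capitals, beside 1 of the 2 Pim1 windows, from chr17:29490535-29490752 on the plus strand. Neither Pim1 window holds the letters. Both sequences are given without exonic bases.
Socs3: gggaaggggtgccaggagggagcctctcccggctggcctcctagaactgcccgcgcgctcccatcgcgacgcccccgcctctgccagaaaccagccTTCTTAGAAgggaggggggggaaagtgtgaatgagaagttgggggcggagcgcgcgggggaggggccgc
Pim1: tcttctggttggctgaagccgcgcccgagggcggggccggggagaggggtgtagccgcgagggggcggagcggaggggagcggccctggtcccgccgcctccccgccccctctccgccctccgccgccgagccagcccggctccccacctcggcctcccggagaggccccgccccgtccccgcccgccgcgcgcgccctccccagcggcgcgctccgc
Among the other pathway genes, 3 of the 41 with a window (Zfp36, Gab1 and Cish) held the letters. The stricter TTCCNGGAA, which is included in the first pattern, was in 1.15% of all windows and in 0 member windows. A match is a description of letters, and no binding was measured.

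Pim1 (ENSMUSG00000024014.8) lies on the plus strand of chr17:29490753-29496112, with a longest transcript of 2698 bases in 6 exons. The Direct RNA libraries had 109 and 151 CPM in Undiff (38 and 137 reads) and 45.9 and 39.3 CPM in Day4 (13 and 29 reads). The cDNA libraries had 17.9 and 19.2 CPM in Undiff (17 and 40 reads) and 10.6 and 17.8 CPM in Day4 (14 and 37 reads). By CPM, Undiff libraries were above Day4 libraries on both kits, with a wide gap in Direct RNA and almost none in cDNA. Counts normalized by size factors were further apart in cDNA, at 30.6 to 31.7 in Undiff and 15.4 to 22.0 in Day4. In Direct RNA the mean went from 130 ± 29.6 to 42.6 ± 4.63 CPM (SD, n = 2), 3.05-fold lower, with a log2 fold change of -1.69 (SE 0.52, DESeq2 adjusted p = 0.015). That call was lost when any one of the 4 Direct RNA libraries was left out, with DESeq2 adjusted p of 0.130 without Undiff replicate 1, 0.781 without Undiff replicate 2, 0.139 without Day4 replicate 1 and 0.375 without Day4 replicate 2. It was also lost with the replicate number as a block (-1.63, DESeq2 adjusted p = 0.153). In cDNA the mean was 18.5 ± 0.871 CPM in Undiff and 14.2 ± 5.08 CPM in Day4, with a log2 fold change of -0.68 (SE 0.70, DESeq2 adjusted p = 0.736). The difference of the log2 fold changes between kits was 1.02 (SE 0.81, unadjusted p = 0.207 and adjusted p = 0.9999 in the DESeq2 interaction), so Pim1 was not shown to respond differently by kit.

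The receptor chains were Lifr and Il6st. Lifr (ENSMUSG00000054263.12), the LIF-binding chain, lies on the plus strand of chr15:7090614-7197489 and has the longest transcript of the 6 members, 9655 bases in 19 exons. In Direct RNA it had 28.7 and 18.7 CPM in Undiff (10 and 17 reads) and 14.1 and 5.42 CPM in Day4 (4 reads in each). Its cDNA values were 77.0 and 97.7 CPM in Undiff (73 and 204 reads) and 77.4 and 46.7 CPM in Day4 (102 and 97 reads). The Day4 libraries lay below the Undiff libraries in Direct RNA and overlapped them in cDNA. The mean was 23.7 ± 7.05 CPM in Undiff and 9.77 ± 6.14 CPM in Day4 (SD, n = 2) in Direct RNA, with a log2 fold change of -1.28 (SE 0.98, DESeq2 adjusted p = 0.555). In cDNA the means were 87.3 ± 14.7 and 62.0 ± 21.7 CPM, with a log2 fold change of -0.77 (SE 0.49, DESeq2 adjusted p = 0.412). The overlap of the cDNA states was one of CPM, since counts normalized by size factors were 136 to 156 in Undiff and 57.8 to 113 in Day4.

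Il6st (ENSMUSG00000021756.12), which encodes gp130, lies on the plus strand of chr13:112464070-112510086, with a longest transcript of 8678 bases in 17 exons. The Direct RNA libraries had 23.0 and 36.4 CPM in Undiff (8 and 33 reads) and 42.3 and 17.6 CPM in Day4 (12 and 13 reads). In cDNA it had 2.11 and 8.14 CPM in Undiff (2 and 17 reads) and 4.55 and 6.74 CPM in Day4 (6 and 14 reads). The Day4 values lay around the Undiff values in Direct RNA and between them in cDNA. The means were 29.7 ± 9.48 in Undiff and 30.0 ± 17.5 CPM in Day4 (SD, n = 2) in Direct RNA, and 5.12 ± 4.26 and 5.65 ± 1.55 CPM in cDNA. The log2 fold change was -0.18 (SE 0.79, DESeq2 adjusted p = 0.935) in Direct RNA and -0.19 (SE 1.05, DESeq2 adjusted p = 0.951) in cDNA, and neither passed the test. Its sign is opposite to that of the CPM means on both kits, so no direction is read from it.

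Jak1 (ENSMUSG00000028530.14), the receptor-bound tyrosine kinase, lies on the minus strand of chr4:101152367-101265282, with a longest transcript of 4906 bases in 25 exons. In Direct RNA it had 34.4 and 28.7 CPM in Undiff (12 and 26 reads) and 70.6 and 77.3 CPM in Day4 (20 and 57 reads). The cDNA libraries had 4.22 and 4.79 CPM in Undiff (4 and 10 reads) and 12.9 and 11.6 CPM in Day4 (17 and 24 reads). Both Day4 libraries were above both Undiff libraries on each kit. The means were 31.5 ± 4.09 in Undiff and 73.9 ± 4.75 CPM in Day4 (SD, n = 2) in Direct RNA, and 4.50 ± 0.404 and 12.2 ± 0.950 CPM in cDNA. The log2 fold change was 1.09 (SE 0.61, DESeq2 adjusted p = 0.315) in Direct RNA and 1.01 (SE 0.91, DESeq2 adjusted p = 0.656) in cDNA, so neither passed. With the quasi-likelihood test of edgeR the Direct RNA difference did pass, at a log2 fold change of 1.16 (edgeR adjusted p = 0.032). That test called 33.7% of 9690 genes in Direct RNA and 32.6% of 10301 in cDNA.

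Stat3 (ENSMUSG00000004040.16), the transcription factor of the pathway, lies on the minus strand of chr11:100885098-100939540, with a longest transcript of 6042 bases in 24 exons. The Direct RNA libraries had 48.8 and 69.4 CPM in Undiff (17 and 63 reads) and 49.4 and 33.9 CPM in Day4 (14 and 25 reads). Its cDNA values were 15.8 and 24.9 CPM in Undiff (15 and 52 reads) and 22.8 and 23.6 CPM in Day4 (30 and 49 reads). The states overlapped on both kits. The means were 59.1 ± 14.6 and 41.6 ± 10.96 CPM in Direct RNA and 20.4 ± 6.42 and 23.2 ± 0.586 CPM in cDNA, Undiff first (SD, n = 2). The log2 fold change was -0.64 (SE 0.63, DESeq2 adjusted p = 0.706) in Direct RNA and -0.14 (SE 0.64, DESeq2 adjusted p = 0.951) in cDNA, where its sign is opposite to that of the CPM means and no direction is read from it.

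**Figure D2:**
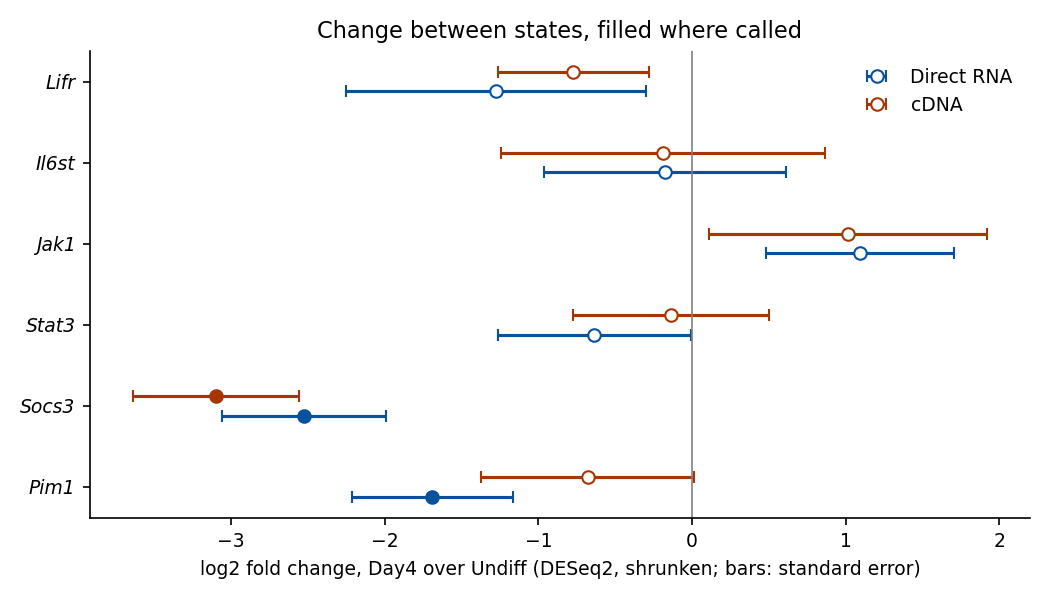
Shrunken log2 fold change of each member, Day4 over Undiff, for Direct RNA (blue) and cDNA (orange), with standard errors as bars and filled points where the gene was called. Socs3 is filled on both kits at -2.52 and -3.10, Pim1 in Direct RNA at -1.69, and Jak1 is the one member right of 0, at 1.09 and 1.01.

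The difference between kits in the change from Undiff to Day4 was tested for all members in one fit over the 8 libraries. It was called for 0 of the 6 members, with unadjusted DESeq2 p between 0.207 and 0.971, so 0 had an unadjusted p under 0.05, and edgeR also called 0 of them. Over all genes 2 of 17267 (0.0116%) were called by DESeq2 and 14 (0.0811%) by edgeR. The difference was -0.61 (SE 0.77) for Socs3, 0.75 (SE 0.95) for Lifr and 0.52 (SE 0.87) for Stat3 on the log2 scale. It was -0.06 (SE 1.31) for Il6st and -0.04 (SE 1.01) for Jak1, with standard errors far larger than the values.

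The reads of Socs3 were also set against those of Stat3 within each library, which takes no account of library size. This is a share of reads and was not taken as a ratio of levels. In Direct RNA Socs3 gave 76.1% and 68.0% of the reads of both genes in Undiff (95% Wilson intervals 65.0 to 84.5 and 61.2 to 74.1) and 39.1% and 40.5% in Day4 (22.2 to 59.2 and 27.0 to 55.5). In cDNA it gave 88.2% and 76.4% in Undiff (81.4 to 92.7 and 70.3 to 81.5) and 42.3% and 31.0% in Day4 (29.9 to 55.8 and 21.4 to 42.5). The 4 Undiff libraries were all above the 4 Day4 libraries, whichever the kit. The share of Lifr among the reads of both receptor chains followed the kit instead. It was between 23.5% and 55.6% in the 4 Direct RNA libraries and between 87.4% and 97.3% in the 4 cDNA libraries. These intervals hold counting error and nothing else, since PCR copies of a molecule are not independent. Both shares are made from the reads already given for each gene, so they are not separate evidence.

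**Figure D3:**
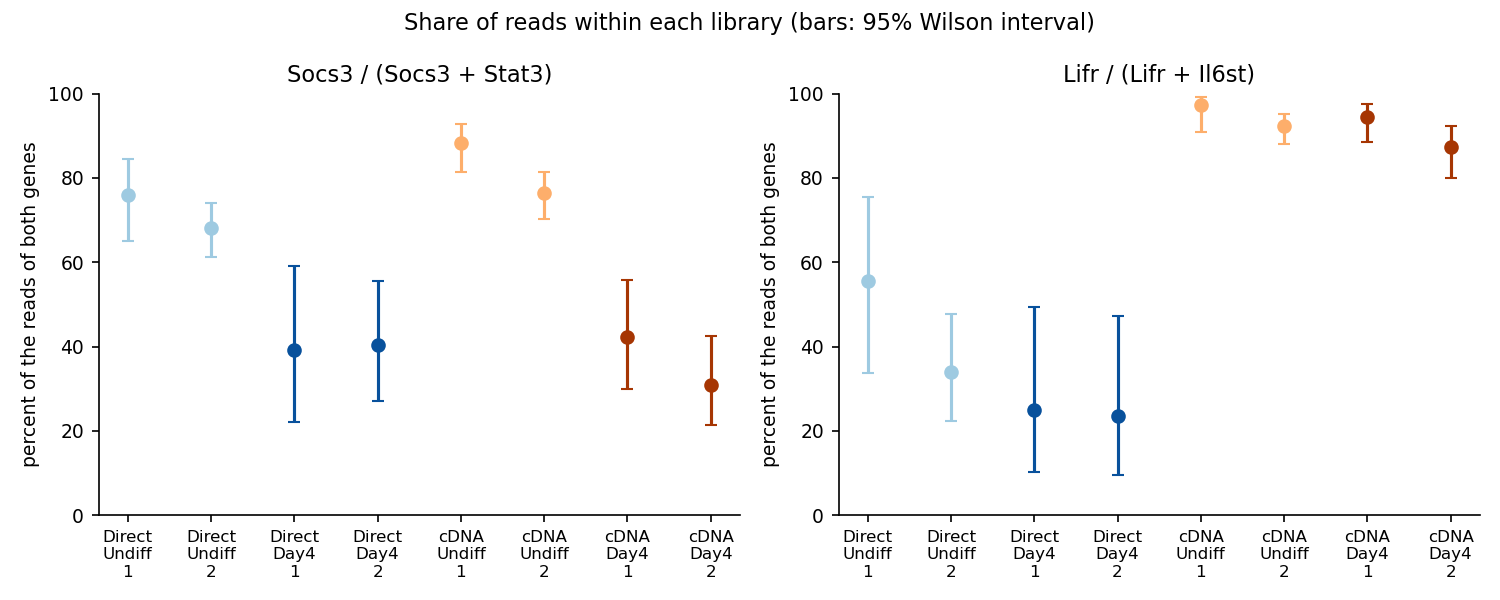
Reads of Socs3 as a percentage of Socs3 and Stat3 reads (left) and of Lifr as a percentage of Lifr and Il6st reads (right) in each of the 8 libraries, with 95% Wilson intervals. The left panel separates Undiff (68.0% to 88.2%) from Day4 (31.0% to 42.3%), and the right panel separates Direct RNA (23.5% to 55.6%) from cDNA (87.4% to 97.3%).

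Between kits, with state as a covariate, Lifr was higher in cDNA, while Il6st, Jak1 and Pim1 were lower. Of the 6 members, 1 was thus called higher and 3 lower, beside 51.3% of 10426 genes called in either direction (24.7% higher and 26.6% lower). The log2 fold change of cDNA over Direct RNA was 3.0 (SE 0.40, DESeq2 adjusted p = 2.0e-12) for Lifr. It was -1.92 (SE 0.37, DESeq2 adjusted p = 1.6e-06) for Jak1, -1.47 (SE 0.34, DESeq2 adjusted p = 9.7e-05) for Pim1 and -1.58 (SE 0.50, DESeq2 adjusted p = 0.0053) for Il6st. The call for Il6st was lost without Direct RNA Undiff replicate 2 (DESeq2 adjusted p = 0.064) and without Direct RNA Day4 replicate 1 (DESeq2 adjusted p = 0.052). Stat3 (-0.44, SE 0.33, DESeq2 adjusted p = 0.354) and Socs3 (0.04, SE 0.33, DESeq2 adjusted p = 0.992) did not pass. The median over the members was -0.96, beside -0.02 over all genes.

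The receptor chains, with the longest transcripts of the 6, thus differed between kits in opposite directions. Among 242 tested genes with a transcript at least as long as that of Lifr, 19.4% were called higher and 27.7% lower in cDNA. Among the 386 at least as long as Il6st, 19.2% were called higher and 29.8% lower. For the 2297 at least as long as Jak1 these shares were 15.4% and 36.9%. For the 6395 at least as long as Pim1 they were 16.61% and 32.85%. Over all 10060 tested genes with a length they were 24.4% and 26.6%. The part of length in the kit differences was not tested. Jak1 shares exonic bases with Raver2 on the opposite strand, Stat3 with Stat5a, and Pim1 with Gm26885, which was not analysed here. Direct RNA reads were counted by strand, whereas the setting for cDNA is not given in the sources used here. Raver2 had 4 to 26 reads in the Direct RNA libraries and 0 to 2 in the deeper cDNA libraries. Stat5a had 0 to 3 reads per Direct RNA library, against 4 to 9 per cDNA library. The part of the overlap in the kit difference of Jak1 was not tested.

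**Figure D4:**
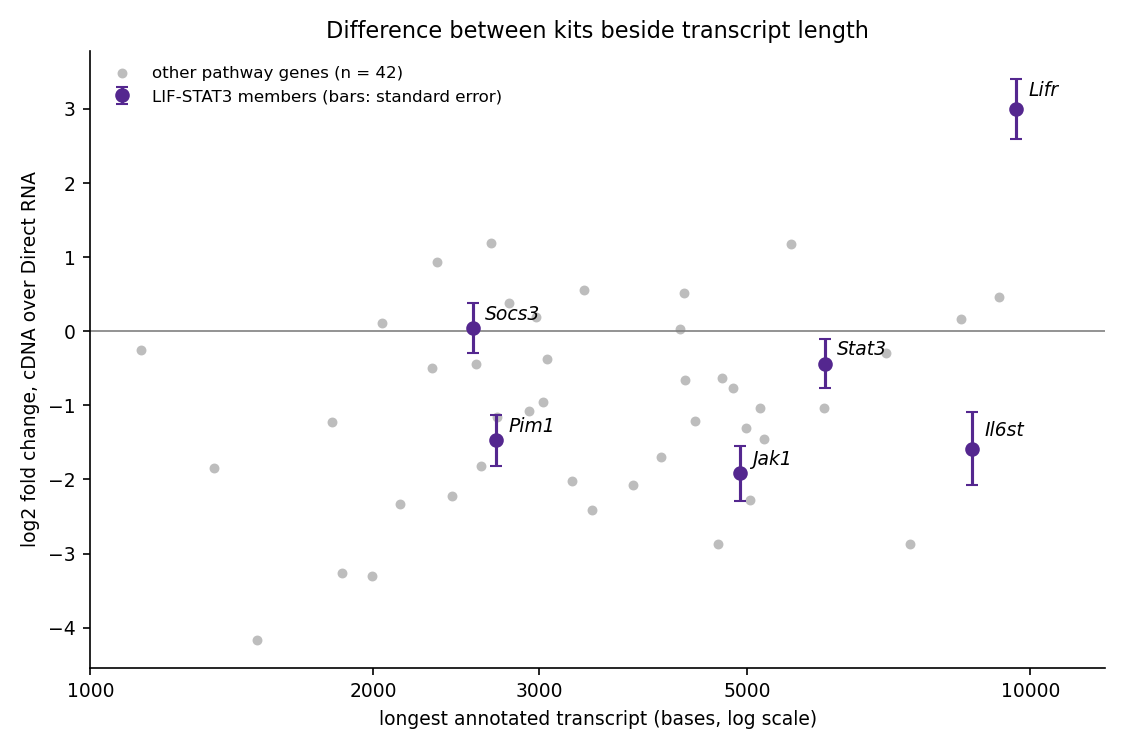
Log2 fold change of cDNA over Direct RNA for the 6 members (purple, bars for the standard error) and 42 other pathway genes (grey), against the length of the longest annotated transcript in bases on a log axis. Lifr, at 9655 bases, stands at 3.0 and Il6st, at 8678 bases, at -1.58.

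Ordered by mean CPM, the groups ran differently for each member. For Socs3 the order was Direct RNA Undiff, cDNA Undiff, Direct RNA Day4 and cDNA Day4, and no neighbours in it overlapped. For Pim1 and Jak1 both Direct RNA groups came before both cDNA groups, Undiff first for Pim1 and Day4 first for Jak1, again with no overlap between neighbours. For Lifr both cDNA groups came first and overlapped each other, followed by Direct RNA Undiff and then Direct RNA Day4. For Il6st and Stat3 the Direct RNA groups came before the cDNA groups, and within each kit the states overlapped. Across kits this order depends on the scale. With counts normalized by the size factors of the kit test, Socs3 had 93.8 to 165 in cDNA Undiff and 105 to 106 in Direct RNA Undiff, and 9.47 to 18.4 in cDNA Day4 and 15.1 to 19.8 in Direct RNA Day4, so the kits overlapped in each state. On that scale Stat3 had 22.1 to 30.9 in Direct RNA Day4 and 22.0 to 29.0 in cDNA Undiff, which also overlapped. Over the 8 libraries, the gene whose log2(CPM + 1) followed Socs3 most closely was Arhgap8 (Pearson r = 0.979), ahead of Coprs (0.977) and Gm13247 (0.975). For Pim1 these were Pelp1 (0.985), Samhd1 (0.985) and Enah (0.983), and for Stat3 Cds2 (0.981), Arhgap19 (0.976) and Spryd4 (0.974). For Jak1 they were Abhd8 (0.998), Galk1 (0.996) and Hnrnph3 (0.995), for Lifr Timm17a (0.974), Mphosph6 (0.968) and Nucks1 (0.963), and for Il6st Slc38a4 (0.995), Dhx36 (0.988) and Gdi2 (0.981). These are the highest values among at least 6668 genes that averaged 20 or more reads, and the 8 points share kit, state and depth, so they are descriptions of pattern.

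A further 55 genes of the pathway were examined by role. In Direct RNA, of 42 with a mean normalized count of at least 5, 3 rose and 10 fell between Undiff and Day4, and in cDNA, of 36, 2 rose and 4 fell. These counts stand beside 17.2% of all genes called in Direct RNA and 17.9% in cDNA. Their median log2 fold change was -0.46 in Direct RNA and -0.65 in cDNA, beside 0.03 and 0.00 over all genes. In all 14 genes were called on at least 1 kit, 5 of them on both. Counts of calls leaned on the processing and on single libraries. These calls numbered 21 (Direct RNA) and 12 (cDNA) by edgeR, 6 and 5 when the replicate number was a block, and 3 and 2, of 15 tested on each kit, when every library had to hold at least 10 reads. Of all genes, in the same order, these settings called 33.7% and 32.6%, 8.74% and 13.4%, and 15.8% and 18.5%. The block ended the Direct RNA calls of Stat6, Gab1, Gbx2, Pim2, Pim3, Bcl3 and Cebpb and the cDNA calls of Cntfr and Klf4. It added a cDNA call of Tfcp2l1. Of the 13 DESeq2 calls in Direct RNA, some were lost whichever library was left out. The same was so for the 6 calls in cDNA. The calls of Cntfr in Direct RNA and of Klf5 and Pim2 in cDNA were kept under all 4 omissions.

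The alpha chains of related cytokine receptors were the genes that rose on both kits. Cntfr, which binds ciliary neurotrophic factor and works with Lifr and gp130, had 5.74 and 3.31 CPM in Undiff (2 and 3 reads) and 194 and 178 CPM in Day4 (55 and 131 reads) in Direct RNA. In cDNA it had 0 reads in both Undiff libraries and 8.34 and 14.4 CPM in Day4 (11 and 30 reads). The fitted log2 fold change was 5.02 (SE 0.71, DESeq2 adjusted p = 2.3e-10) in Direct RNA. In cDNA it was called at DESeq2 adjusted p = 0.011, and the mean was at least 4.95-fold higher against the floor of 3 reads per library. That cDNA call was lost when any one of the 4 cDNA libraries was left out, with adjusted p between 0.064 and 0.485. Il11ra1, the alpha chain of the interleukin-11 receptor, had 0 and 7.71 CPM in Undiff and 109 and 130 CPM in Day4 in Direct RNA. The cDNA libraries had 0 and 0.958 CPM in Undiff and 13.7 and 29.8 CPM in Day4. Its log2 fold change was 4.13 (SE 0.75, DESeq2 adjusted p = 2.2e-06) in Direct RNA and 4.07 (SE 1.08, DESeq2 adjusted p = 0.0030) in cDNA. Both calls depended on single libraries. The Direct RNA call was lost without Day4 replicate 1 or 2 (adjusted p = 0.548 and 0.648) and the cDNA call without Undiff replicate 2 or Day4 replicate 2 (adjusted p = 0.076 and 0.435). Its counts are uncertain because of the near-identical copy Il11ra2, with 0 reads in all 8 libraries, and because its exons overlap Ccl27a on the opposite strand, which had 61 and 51 reads in the cDNA Day4 libraries. Osmr, the oncostatin M receptor chain that pairs with gp130, and Il6ra, the alpha chain of the interleukin-6 receptor, had 0 reads in all 8 libraries.

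Of the ligands, Lif itself had 4 and 3 reads in Undiff and 1 and 0 in Day4 in Direct RNA, and 0 and 6 reads in Undiff and 1 and 0 in Day4 in cDNA. These numbers are around the floor of 3 reads and give no comparison. Among the other kinases, 0 of 3 in Direct RNA and 0 of 2 in cDNA were called by DESeq2, where 0 had an unadjusted p under 0.05, and edgeR called 1 (Jak2) in Direct RNA and 0 in cDNA. Of the other STAT genes, Stat6, which acts in interleukin-4 signalling, fell in Direct RNA from 71.7 and 78.2 to 17.6 and 16.3 CPM, with a log2 fold change of -2.14 (SE 0.67, DESeq2 adjusted p = 0.018). Its cDNA values were 4.22 and 15.3 CPM in Undiff and 2.28 and 1.93 CPM in Day4, with a log2 fold change of -2.22 (SE 1.04, DESeq2 adjusted p = 0.184), called by edgeR. Its Direct RNA call was lost with any library left out (adjusted p between 0.162 and 0.637). Of the adaptors, Gab1, a docking protein downstream of gp130, fell in Direct RNA with a log2 fold change of -1.15 (SE 0.41, DESeq2 adjusted p = 0.0498), just inside the threshold, and had -1.32 (SE 0.50, DESeq2 adjusted p = 0.069) in cDNA, where edgeR called it. The Gab1 call was lost without either Undiff replicate (adjusted p = 0.604 and 0.460) and without Day4 replicate 2 (adjusted p = 0.763). It was also lost with TMM factors (DESeq2 adjusted p = 0.053), without shrinkage (0.051), with the 10-read filter (0.061, log2 fold change -0.96) and with the replicate block (0.134).

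Of the inhibitors, 0 of 12 were called by DESeq2 in Direct RNA, where 4 had an unadjusted p under 0.05 and edgeR called the same 4 (Socs2, Socs5, Pias2 and Ptpn6), beside 33.7% of all genes by that test. In cDNA 1 of 11 was called, where Pias2, of the protein inhibitors of activated STAT, fell with a log2 fold change of -1.67 (SE 0.50, DESeq2 adjusted p = 0.012). That call was lost with any cDNA library left out (adjusted p between 0.078 and 0.448). In Direct RNA Pias2 had -1.08 (SE 0.44, DESeq2 adjusted p = 0.103). Of the SOCS genes, Socs3 was the one called by DESeq2 on both kits. With edgeR its relative Socs2 was also called lower on both, at -1.32 in Direct RNA and -1.26 in cDNA, and Socs5 was called higher in Direct RNA, at 2.00. By CPM the states of Socs2 overlapped on both kits. It had 57.4 and 152 CPM in Undiff and 31.8 and 58.3 CPM in Day4 in Direct RNA. In cDNA it had 34.8 and 88.1 CPM in Undiff and 18.2 and 45.7 CPM in Day4.

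The genes listed as targets held 9 of the 13 calls in Direct RNA, with 1 higher and 8 lower of 14. In cDNA they held 3 of the 6 calls, with 0 higher and 3 lower of 11. Of all genes, 17.2% and 17.9% were called. The list was chosen with earlier results of these data known, so these counts do not test whether targets change more often. Klf4, a Krüppel-like transcription factor of naive pluripotency, had 71.7 and 132 CPM in Undiff and 7.06 and 6.78 CPM in Day4 in Direct RNA. In cDNA it had 14.8 and 27.8 CPM in Undiff and 2.28 and 6.26 CPM in Day4. Its relative Klf5 had 43.0 and 80.4 CPM in Undiff and 3.53 and 2.71 CPM in Day4 in Direct RNA, and 42.2 and 53.6 against 1.52 and 6.74 CPM in cDNA. Pim2, a kinase related to Pim1, had 28.7 and 86.0 CPM in Undiff and 3.53 and 8.13 CPM in Day4 in Direct RNA, and 32.7 and 48.4 against 2.28 and 4.81 CPM in cDNA. These 3 fell on both kits, and Undiff lay above Day4 in every library of each. The log2 fold changes in Direct RNA and cDNA were -3.73 (SE 0.75) and -2.44 (SE 0.81) for Klf4, -3.94 (SE 0.93) and -3.62 (SE 0.69) for Klf5, and -2.98 (SE 0.88) and -3.60 (SE 0.70) for Pim2. The DESeq2 adjusted p in Direct RNA was 2.5e-05 for Klf4, 5.7e-04 for Klf5 and 0.0097 for Pim2. In cDNA it was 0.027, 6.5e-06 and 1.4e-05 in the same order. Without Direct RNA Undiff replicate 2 all 3 Direct RNA calls were lost (adjusted p = 0.240, 0.414 and 0.957). The Klf5 call was also lost without Direct RNA Day4 replicate 2 (adjusted p = 0.115), and that of Pim2 without either Day4 replicate (adjusted p = 0.151 and 0.156). The cDNA call of Klf4 was lost with any cDNA library left out (adjusted p between 0.088 and 0.605).

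**Figure D5:**
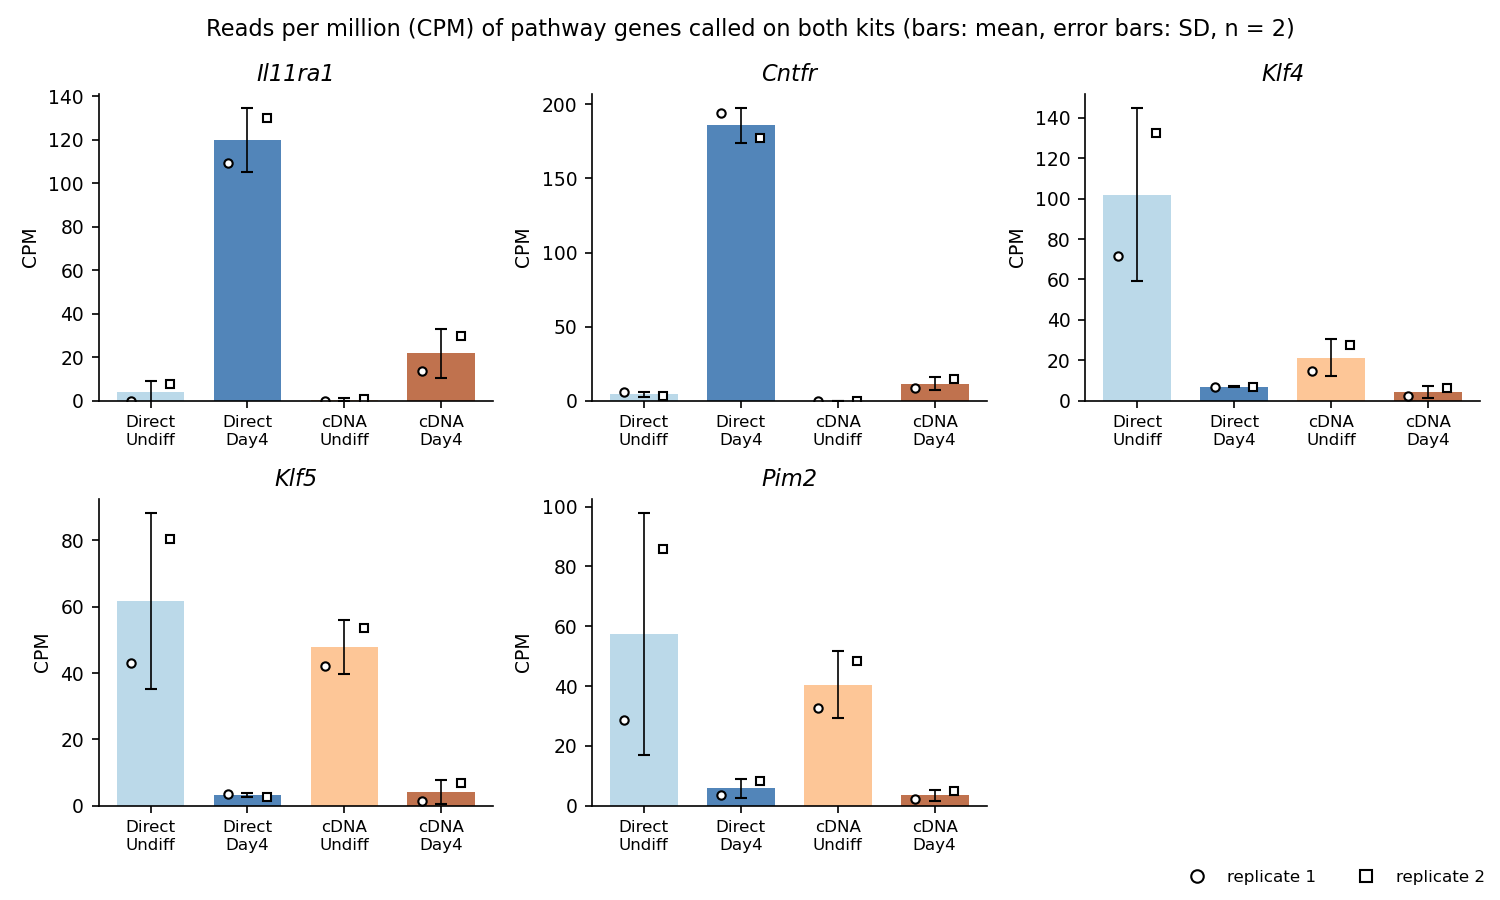
Level in CPM (linear axes that start at 0) of the 5 other pathway genes called on both kits, with circles for replicate 1, squares for replicate 2, bars for the mean and error bars for the SD (n = 2). Il11ra1 and Cntfr are near 0 in Undiff and high in Day4, and Klf4, Klf5 and Pim2 show the opposite order, with wide spread between the Undiff replicates.

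The other DESeq2 calls among the targets were in Direct RNA. Tfcp2l1, a transcription factor of naive pluripotency, fell from 71.7 and 114 to 14.1 and 1.36 CPM, with a log2 fold change of -3.73 (SE 0.81, DESeq2 adjusted p = 1.2e-04). The cDNA libraries had 47.4 and 151 CPM in Undiff and 0 and 6.26 CPM in Day4, with -3.67 (SE 1.41, DESeq2 adjusted p = 0.073). The main DESeq2 fit did not call it, whereas edgeR and DESeq2 with the replicate block did. The homeobox gene Gbx2 (-3.32, SE 0.93), the IkB-family gene Bcl3 (-1.70, SE 0.59), the kinase Pim3 (-1.22, SE 0.39) and Mcl1 (-1.44, SE 0.30), which protects cells from apoptosis, also fell, with DESeq2 adjusted p of 0.0056, 0.036, 0.022 and 6.7e-05. Cebpb, a transcription factor of inflammation and fat cell differentiation, rose with 2.24 (SE 0.74, DESeq2 adjusted p = 0.026). In cDNA Gbx2 (-0.23, SE 1.45), Bcl3 (0.42, SE 1.25), Pim3 (-1.69, SE 0.65), Mcl1 (-0.90, SE 0.51) and Cebpb (1.17, SE 1.54) were not called by DESeq2, while edgeR called Pim3. Of these Direct RNA calls, those of Gbx2, Pim3, Bcl3 and Cebpb were lost whichever library was left out, with adjusted p between 0.068 and 0.748. The call of Tfcp2l1 was lost without Undiff replicate 2 or Day4 replicate 2 (adjusted p = 0.324 and 0.136), and that of Mcl1 without Undiff replicate 2 (adjusted p = 0.155). In the test of platform by state 0 of the 42 other pathway genes were called by DESeq2 or by edgeR, and 0 had an unadjusted p under 0.05, so none was shown to change differently by kit.

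Between kits, 2 of the 42 other pathway genes with a sufficient mean count were called higher and 17 lower in cDNA, with a median of -1.04, beside 24.7% higher, 26.6% lower and a median of -0.02 over all genes. The inhibitors Ptpn2 (1.19, SE 0.24), a phosphatase, and Pias1 (1.18, SE 0.32) were the genes called higher, and the next value among the called genes was -1.15 (SE 0.28) for the adaptor Grb2. The lowest were Cebpb (-4.16, SE 0.65), Cntfr (-3.30, SE 0.45) and Bcl3 (-3.26, SE 0.55). Of the other pathway genes called between states, Cebpb shares exonic bases with Tmem189 on the opposite strand, Stat6 with Nab2, Bcl3 with Gm16175, Gab1 with Gm31105 and Gbx2 with D130058E05Rik, beside the overlap of Il11ra1 given above.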

How the data were processed

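The deposited values are whole-number counts of ONT reads per gene symbol. The authors made them with htseq-count and the UCSC iGenomes annotation from minimap2 alignments to mm10 without secondary alignments, and applied no normalization. Direct RNA reads were base-called with albacore or Guppy and trimmed with Poreplex, and cDNA reads, those of the skip folder base-called with Guppy, were trimmed with porechop. Counters of unassigned reads, between 38.1% and 61.7% of the reads in a file, were left out of library sizes and tests.

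The LIF-STAT3 members and the gene lists were chosen with earlier results of these data known. Libraries were grouped by their labels, and 0 value columns lacked a sample. Replicates differed beyond sampling noise (chi-square per degree of freedom 2.68 to 14.9), so each library counted as 1 replicate.

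State tests used DESeq2 1.42.0 in R 4.3.3 on each kit, after the study's methods (Wald test, shrunken log2 fold changes, no Cook's cutoff, no independent filtering), with Benjamini-Hochberg adjustment over all genes. The kit test and the unshrunken platform by state test, called on adjusted p alone, used all 8 libraries. Alternatives were edgeR 4.0.16 (quasi-likelihood, TMM), TMM factors in DESeq2, a filter of at least 10 reads in every library, a replicate block, Cook's cutoff with independent filtering, no shrinkage, no minimum fold change, and each library left out. The fits were run on simulated data with the same dispersion for every gene and changes placed in 200 genes with more reads. That setting is simpler than these libraries, so it does not show how the fits do on members with few reads. SDs are over 2 replicates, and intervals and floors cover counting error only.

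Named were the 6 members, every other pathway gene called between states on at least 1 kit, the 3 largest and 3 smallest called kit differences, and the 3 genes most like each member. Lif, Osmr, Il6ra, Jak2, Stat4, Socs2, Socs5, Cish, Ptpn6 and Zfp36, the marker genes and the overlapping genes lie outside that rule and were chosen after their values were seen. The result of 1 listed ligand is not reported here. Coordinates and overlaps come from GENCODE vM21 (GRCm38), and promoter windows from RefSeq (GRCm38.p6).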

Additional observations from a re-analysis of the deposited data

How the results depend on the processing

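In Direct RNA 1660 genes were called between states, 3267 with edgeR, 723 with at least 10 reads in every library and 393 to 797 with a library left out. In cDNA these were 1842, 3355, 989 and 709 to 1020. For platform by state they were 2, 14, 1 and 0 to 13, and 1 with TMM factors, which moved the median of all genes by 0.11 on the log2 scale there. Between kits 5344 genes were called and 1674 with the 10-read filter. The number of members called in Direct RNA was 2 as reported, 1 with the filter, which removed Socs3 (9 reads in 1 library) from the test, and 0 to 1 with a library left out (0 without Undiff replicate 2 or Day4 replicate 2). Between kits it was 4, and 1 with the filter, which left Lifr, Il6st and Jak1 untested.

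Some members not called changed sign. Without one library, Il6st ran from -0.67 to 0.31 in Direct RNA (positive values 0.20 and 0.31) and from -0.73 to 0.70 in cDNA (0.01 and 0.70), and Stat3 in cDNA from -0.41 to 0.12, with 0.027 under the 10-read filter. In platform by state Il6st was 0.10 with edgeR and 0.074 with TMM factors, and ran from -0.58 to 1.10 without one library (positive 0.27, 0.64, 1.10 and 0.05). Jak1 was 0.025 with edgeR and 0.059 with TMM factors, and ran from -0.28 to 0.19 without one library (positive 0.08, 0.09 and 0.19). The kit difference of Socs3 ran from -0.18 to 0.24 without one library (negative -0.04, -0.03, -0.18 and -0.01). The cause of these moves was not tested. Over the members, and the other pathway genes on the kits where DESeq2 had called them between states, 389 alternative values kept direction and call, 69 lost the call, 1 gained it (Jak1) and 23 changed sign.

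The numbers pair states on each kit and kits within a state. Across 1395 genes the replicate differences correlated at 0.21 (Direct RNA) and 0.50 (cDNA) between states. Between kits they correlated at 0.12 (Undiff) and -0.42 (Day4). In Day4 every marker of embryonic stem cells was higher in replicate 2 on both kits, and Hbb-bh1 was higher in replicate 1 on both. Col1a1, Col3a1, Gata6 and Afp were higher in replicate 1 in Direct RNA and in replicate 2 in cDNA. With 2 pairs the samples share a number, and whether they share an origin was not tested. With the replicate block 843 genes were called in Direct RNA (members 1) and 1375 in cDNA. The Direct RNA value of Pim1 was then -1.63 (DESeq2 adjusted p = 0.153), platform by state of Il6st 0.19 and the kit value of Socs3 -0.022, and the block changed no other member call. Among the other pathway genes the calls ended by it had been, in Direct RNA, Stat6 (DESeq2 adjusted p = 0.181), Gab1 (0.134), Gbx2 (0.075), Pim2 (0.084), Pim3 (0.134), Bcl3 (0.263) and Cebpb (0.212) and, in cDNA, Cntfr (0.081) and Klf4 (0.118), and Tfcp2l1 was then called in cDNA (3.9e-09). With the Day4 numbers crossed between kits, an alternative chosen after seeing the data, the block gave 1 gene for platform by state and 5081 between kits.

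Depth limits Il6st and Jak1 in cDNA and Lifr in Direct RNA most: a library held as few as 2, 4 and 4 of their reads. In cDNA Lifr had 73 to 204 reads per library.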

Other observations

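Stat4, the STAT of interleukin-12 signalling, lies outside the naming rule and was chosen after its values were seen. It had 3 and 22 reads in Undiff and 0 and 1 in Day4 in Direct RNA (DESeq2 adjusted p = 0.130), and 5 and 22 against 2 and 6 reads in cDNA (DESeq2 adjusted p = 0.324, called by edgeR).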
